A study of Homo sapiens with 6 samples.

Results

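H2A.Z is a histone variant that takes the place of H2A in a fraction of nucleosomes, most of all around promoters and other regulatory sites. Part of it carries a single ubiquitin near its C-terminus, placed there by the RING1 and RNF2 ligases of Polycomb repressive complex 1. The ubiquitylated form is known from silent chromatin, including the inactive X chromosome, whereas acetylated H2A.Z is known from active promoters. Sites where tagged H2A.Z was found as a peak without a peak of its ubiquitylated form are described here.

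These sites are the autosomal regions with total H2A.Z peaks only, called total-only regions below. They were selected on measured values, namely the peak calls of these libraries, by merging the authors' peaks of ubiquitylated and of total H2A.Z wherever they overlapped or touched, and by keeping the merged regions of chromosomes 1 to 22 that held peaks of the total list alone. There were 56310 of them among 190587 merged autosomal regions (29.5%, Wilson 95% interval 29.3 to 29.8%). A further 79950 regions held peaks of both lists (41.9%) and 54327 held ubiquitylated peaks only (28.5%). Every total-only region consisted of exactly 1 peak, as did 54326 of the 54327 regions with ubiquitylated peaks only. The total-only regions together covered 16.5 Mb, against 43.6 Mb for the regions of both lists and 18.8 Mb for those with ubiquitylated peaks only.

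The peaks come from chromatin immunoprecipitation sequencing (ChIP-seq) in HEK293T, a widely used line derived from human embryonic kidney. The 6 libraries form 3 groups of 2: ubiquitylated H2A.Z recovered with streptavidin-agarose, total H2A.Z recovered with anti-Flag M2 agarose, and histone H3 recovered with an H3 antibody. In all groups, per the labels' protocols, H2A.Z-1 with a C-terminal Flag-BirA fusion and ubiquitin with an N-terminal AviTag were expressed from co-transfected plasmids at a ratio of 3 to 1 for 48 hours, and chromatin was cut with micrococcal nuclease over 30 minutes. BirA is a biotin ligase that marks the AviTag, so streptavidin recovers chromatin in which tagged ubiquitin had been near the fusion. The signal is therefore that of an introduced fusion protein and an introduced ubiquitin, not of the cell's own H2A.Z, and the 2 forms were recovered with different reagents, whose effect on a region cannot be told apart from that of ubiquitylation. Neither counts nor values of single libraries are in the lists, so depth is unknown and no value per replicate can be given. The labels do not say whether replicates were separate cultures.

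The rule reads the peak calls, so peak width, irreproducible discovery rate (IDR, the authors' value per peak for how poorly it repeats between replicates) and fold change come from the libraries that chose the regions, and their values are descriptions. Position along the chromosomes was not used by the rule, whereas the gap to a ubiquitylated peak was, since contact excluded a region. Gaps were counted to the edge of the nearest merged region that held a ubiquitylated peak. In a region of both lists that edge can belong to a total H2A.Z peak, so the ubiquitylated peak itself can lie farther away. Position and gap are given without a test, because regions are not replicates of a condition. The error given with them is the standard deviation (SD) over the 22 autosomes, and Wilson intervals on shares cover counting error only.

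Total-only regions were narrow. Their median width was 251 bp (quartiles 188 and 343 bp), against 425 bp (289 and 663 bp) for regions of both lists and 276 bp (199 and 404 bp) for regions with ubiquitylated peaks only. Widths ran from 135 to 2225 bp. Of the total-only regions 64.7% were under 300 bp, against 27.4% of the regions of both lists and 56.1% of those with ubiquitylated peaks only, and 216 (0.384%) were 1 kb or wider, against 8098 (10.1%) and 1138 (2.09%). Per autosome the median width averaged 252 ± 10.9 bp (SD, n = 22), with the lowest on chromosome 13 (233.5 bp) and the highest on chromosome 19 (280.0 bp). Set against the single peaks of the total list that fell in regions of both lists, the total-only peaks differed by -118 ± 17.9 bp in the median (SD over 22 autosomes) and were narrower on all 22. The median was below that of the regions with ubiquitylated peaks only on all 22 autosomes as well, with a mean difference of -25.1 ± 8.39 bp (SD). Overlap was counted in bases, so width enters the rule and these differences are descriptions.

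The share of total H2A.Z peaks that had no ubiquitylated counterpart fell steadily with width. It was 70.3% of the 14366 peaks of 135 to 174 bp, 44.5% of the 13711 peaks of 273 to 310 bp and 8.78% of the 13880 peaks of 719 bp or wider. By IDR the gradient was shallower, with 31.9% of the 13901 peaks of lowest IDR and 48.5% of the 13901 peaks of highest IDR being total-only. The median IDR of the total-only regions was 0.00401 (quartiles 0.00146 and 0.0121), against 0.00295 for the total H2A.Z peaks that lay in regions of both lists. Expressed as -log10 IDR, the difference was -0.14 ± 0.03 (SD over 22 autosomes) and negative on all 22. An IDR over 0.01 was found in 29.2% of total-only regions, so most lay below that value.

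**Figure D1:**
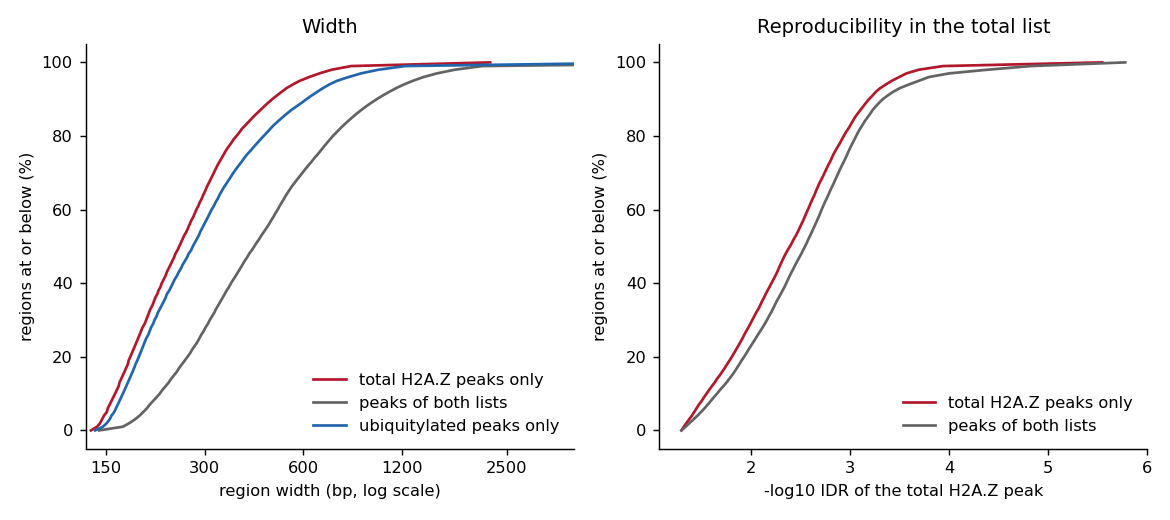
Cumulative share of regions (vertical axis, %) by region width (left, bp, log scale) and by -log10 IDR of the total H2A.Z peak (right; the lowest IDR where a region held several), for regions with total H2A.Z peaks only (red), peaks of both lists (grey) and ubiquitylated peaks only (blue). The red curve lies left of the other widths (medians 251, 425 and 276 bp), while the IDR curves lie close together.

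The threshold of the rule is an overlap or contact with a ubiquitylated peak. The smallest gap between a total-only region and a merged region holding a ubiquitylated peak was 2 bp. Within 50 bp of such a region lay 114 total-only regions. Of these, 32 (28.1%) were lower in the authors' deposited table, and none was higher. Lower means less signal in the streptavidin than in the Flag pull-down. Just outside the rule, 26 regions of both lists shared 50 bp or less between their peaks, and 2 of these (7.69%) were lower and 1 was higher in the authors' deposited table. Regions of this kind were few, and 4240 total-only regions (7.53%) lay within 150 bp of a region holding a ubiquitylated peak. At the other threshold, the 1034 total-only regions with an IDR of 0.045 or more had a median width of 255 bp, and 26.0% of them were lower in the authors' deposited table. For comparison, that deposited table listed as lower 30.9% of all total-only regions and 7.72% of all regions of both lists. Of all autosomal regions 12.4% were lower there. The shares near the thresholds were thus close to those of their classes.

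The authors' deposited table lists regions that differ between the 2 pull-downs at a false discovery rate (FDR) of at most 0.05, with a fold change of ubiquitylated over total H2A.Z that was read as log2, although the file does not state the base. A negative value thus means less signal in the streptavidin than in the Flag pull-down, and the normalization behind it is not stated. In the authors' deposited table, 17415 total-only regions (30.9%, Wilson interval 30.5 to 31.3%) were lower in ubiquitylated H2A.Z, where 12.4% of all autosomal regions and 17.3% of the autosomal regions with a total H2A.Z peak were. The direction of this difference follows from the rule, which used the same contrast. At an FDR of at most 0.01 the authors' deposited table gave 10545 such regions (18.7%, where 7.41% of all autosomal regions were called), and with at least 2-fold change 4647 (8.25%, where 2.46% were called). In the authors' deposited table total-only regions made up 73.6% of all 23662 autosomal regions lower in ubiquitylated H2A.Z and 99.0% of the 4694 with at least 2-fold change. The remaining 38849 total-only regions (69.0%) were in neither differential list, so for most of these sites a missing ubiquitylated peak was not accompanied by a called difference in signal.

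Fold changes of the called total-only regions were moderate. The authors' deposited table gave them a median log2 fold change of -0.84 (quartiles -1.02 and -0.70), against -0.56 (-0.66 and -0.48) for the 6175 regions of both lists that were lower. The extreme was -3.06 among total-only regions and -1.31 among regions of both lists in the authors' deposited table. An FDR of at most 1e-05 was reached by 1323 of the lower total-only regions in that deposited table. Called total-only regions were wider than uncalled ones, with medians of 311 and 231 bp, and had a lower IDR, with medians of 0.00325 and 0.00450.

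**Figure D2:**
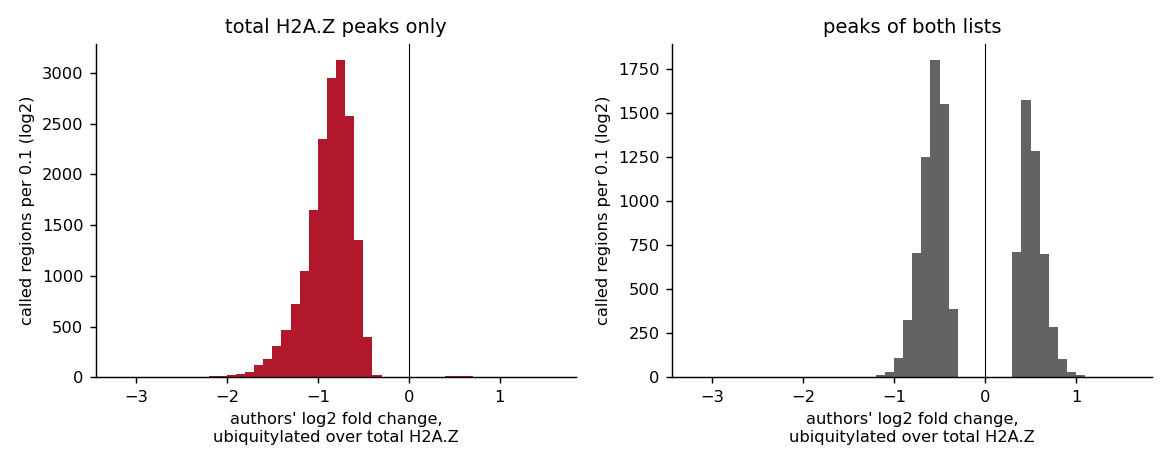
Number of called regions (vertical axis, per 0.1 on the log2 scale) by the authors' log2 fold change of ubiquitylated over total H2A.Z (horizontal axis), for regions with total H2A.Z peaks only (left, red) and for regions with peaks of both lists (right, grey); the vertical axes differ. The left panel lies almost wholly below 0 (17415 lower and 46 higher), the right panel is split (6175 lower and 4706 higher), and the gap around 0 holds the changes that were not called.

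The share of total-only regions that were called differed widely with width. Among regions under 160 bp 16.9% were lower in the authors' deposited table, among those of 251 to 282 bp 27.3%, and among the 5663 of 482 bp or wider 59.7%. The difference between the widest and the narrowest of these classes was 41.5 ± 6.07 percentage points (SD over 22 autosomes) and positive on all 22. The median fold change of called regions ran the other way in the authors' deposited table, at -1.02 (log2) under 160 bp and -0.71 at 482 bp or wider. No called region under 160 bp had a log2 fold change nearer to 0 than -0.56 in the authors' deposited table, whereas at 482 bp or wider called changes reached -0.33. The share with at least 2-fold change showed no such gradient, lying between 7.20% and 9.34% in all 10 width classes. The other classes showed a gradient as well. In the authors' deposited table, the lower share of regions of both lists was 0.461% under 200 bp and 15.5% from 750 to under 1000 bp, and the higher share of regions with ubiquitylated peaks only was 8.56% under 200 bp and 78.5% at 1 kb or wider. At equal width, lower shares were smaller in regions of both lists, a direction that again follows from the rule. Among regions of at least 500 and under 750 bp, 58.7% of the 4013 total-only regions and 11.8% of the 16633 regions of both lists were lower in the authors' deposited table.

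The called share also differed with IDR. In the authors' deposited table, 38.8% of the 5631 total-only regions of lowest IDR and 24.4% of the 5631 of highest IDR were lower, a mean difference of 14.0 ± 4.75 percentage points (SD) with the same sign on all 22 autosomes. The median fold changes of these classes were close, -0.84 and -0.86 (log2) in the authors' deposited table. Median width was also similar, at 249 and 255 bp.

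Called shares were higher far from regions holding a ubiquitylated peak. The nearest such region lay at a median of 2421 bp from a total-only region (quartiles 586 and 10470 bp), and 19152 (34.0%) had one within 1 kb. Between 51 bp and 10 kb the share of lower regions stayed between 27.0% and 31.1% in the authors' deposited table. It was 35.8% among the 11031 regions with a gap over 10 kb and up to 50 kb, and 46.7% among the 3475 with a gap over 50 kb. The share beyond 50 kb exceeded that within 1 kb by 21.2 ± 11.3 percentage points (SD) and did so on all 22 autosomes, by 0.331 to 41.7 points. Total-only regions with a gap over 50 kb had a median width of 265 bp, close to that of those with a gap of 51 to 150 bp (267.5 bp). On both sides of the median width the order was the same. Among regions narrower than the median 19.5% were lower in the authors' deposited table with a gap up to 1 kb and 31.8% with a gap over 50 kb, and among the others 37.6% and 59.6%. At least 2-fold change was found for 16.9% of all total-only regions beyond 50 kb in the authors' deposited table, against 6.13% of those 51 to 150 bp away.

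**Figure D3:**
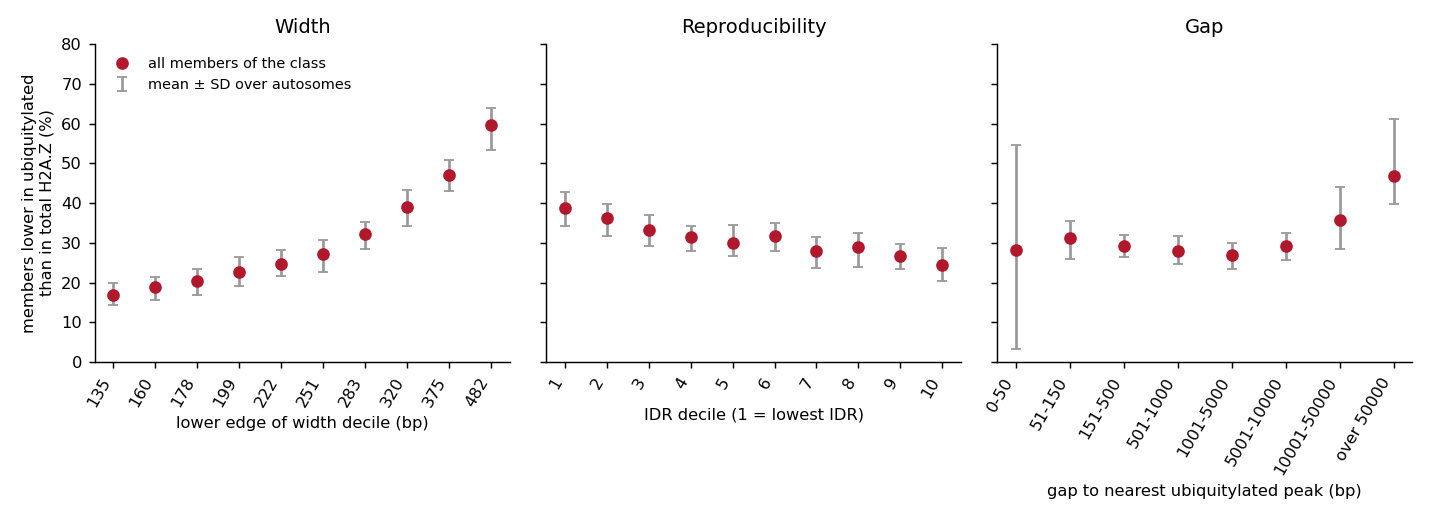
Share of total-only regions that the authors' deposited table lists as lower in ubiquitylated H2A.Z (vertical axis, %) by width class (left), IDR class (middle) and gap to the nearest merged region holding a ubiquitylated peak (right). Red points are all total-only regions of the class, grey bars the mean ± SD over autosomes. The share climbs with width, 16.9% to 59.7%, is 38.8% at the lowest and 24.4% at the highest IDR, and is level with the gap up to 10 kb before reaching 46.7% beyond 50 kb; the first gap class holds 114 regions.

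Total-only regions occurred beside other H2A.Z sites and were often next to each other. The nearest merged region of any kind was 986 bp away in the median, against 527 bp for regions of both lists and 1067 bp for regions with ubiquitylated peaks only. The nearest neighbour was another total-only region in 40.2% of cases, a region of both lists in 39.7% and a region with ubiquitylated peaks only in 20.1%, although these classes made up 29.5%, 41.9% and 28.5% of all regions. The other classes were likewise nearest to their own kind more often than their share of all regions. Regions of both lists were so in 48.8% of cases and regions with ubiquitylated peaks only in 38.4%. Regions with ubiquitylated peaks only were nearest to a total-only region in 21.8%. The median distance of a total-only region to the next total-only region was 4722 bp, to a region of both lists 4230.5 bp and to a region with ubiquitylated peaks only 10229 bp. Only 1313 (2.33%) had no other region within 50 kb of their edges.

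Calls of adjacent total-only regions went together. Where an adjacent total-only region was itself lower, 47.0% of the 14424 regions were lower in the authors' deposited table, and where no adjacent total-only region was lower, 27.2% of 19865 were. The difference was 18.2 ± 5.47 percentage points (SD) and positive on all 22 autosomes. Beside regions of both lists the called share followed the neighbour's call as well. Of the total-only regions flanking a region of both lists, counted once for each side, 46.4% of 5148 were lower where that neighbour was lower, 26.1% of 36823 where it was uncalled, and 17.9% of 1341 where it was higher, in the authors' deposited table. Beside regions with ubiquitylated peaks only, the lower share was 54.5% of 55 where the neighbour was lower, by the authors' deposited table. It was 24.7% of 20547 where that neighbour was uncalled and 26.8% of 4862 where it was higher. By flanks, 42.2% of the 9541 regions lying between total-only regions were lower in the authors' deposited table, 25.7% of the 9000 between regions of both lists and 18.8% of the 3358 between regions with ubiquitylated peaks only. Neighbours share the libraries and the normalization, whose part in this was not tested.

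Series of consecutive total-only regions, with no other merged region between them, were mostly short. Of the total-only regions 22021 (39.1%) stood alone in the order of regions, and 6318 (11.2%) belonged to series of at least 5. The longest series held 15 regions over chr4:148538588-149364252 (826 kb). In the authors' deposited table, 10 of these 15 were lower, with a median log2 fold change of -0.84. The next, 14 regions over chr17:7108256-7175431, was far more compact at 67.2 kb, and 10 of its regions were lower in the authors' deposited table (median -0.89). Series of 13 lay at chr11:59211061-59329235, chr17:8120429-8192743, chr17:66356013-66410232 and chr18:9436296-9720125, with 6, 9, 6 and 4 regions lower in the authors' deposited table. For comparison, the authors' deposited table listed as lower 30.9% of all total-only regions and 12.4% of all autosomal regions. Of the total-only regions lying between total-only regions, 42.2% were lower there. Series of at least 5 numbered 1046, and in the authors' deposited table every region was lower in 33 of them and none in 97. The longest series in which every region was lower in that deposited table held 7 regions and occurred at chr1:161087460-161147232, where the median log2 fold change was -1.18, and at chr10:103330204-103496199, where it was -0.84. These series were singled out by their length after the data were seen.

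Total-only regions were scarce near the outermost merged regions of the chromosomes. Chromosome lengths were not used, and distance was counted from the first or last merged region. On chromosomes 13, 14, 15, 21 and 22 the first merged region lay 9.47 to 20.3 Mb along the chromosome, so that their first stretches are not chromosome ends. Within the outer 5 Mb 16.8% of the 41695 merged regions were total-only, against 33.1% of the 148892 regions farther in. The difference averaged -15.3 ± 5.39 percentage points (SD) and was negative on all 22 autosomes. The share was 16.6% within 1 Mb, 14.0% between 1 and 2 Mb, 18.0% between 2 and 5 Mb and 25.9% between 5 and 10 Mb, and it was level beyond 20 Mb (34.9% up to 50 Mb and 35.1% farther in). Regions of both lists and regions with ubiquitylated peaks only took up the difference, at 51.2% and 34.7% between 1 and 2 Mb against 38.8% and 26.2% beyond 50 Mb. With each end taken by itself, 38 of 44 outer 5 Mb stretches had a smaller share of total-only regions than the inner part of their chromosome, with a median of 17.5%. Without the first stretches of those 5 chromosomes, a choice made after seeing the data, 35 of 39 did. The exceptions among the 44 included the first 5 Mb with regions on chromosomes 9, 13, 14 and 18, which held 45.3%, 42.6%, 37.2% and 39.5% total-only regions, and the last 5 Mb of chromosomes 3 (39.3%) and 1 (34.8%). The number of regions in these stretches ran from 53 on chromosome 9 to 425 on chromosome 14.

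They were also scarce where H2A.Z regions were crowded. With at least 50 other regions within 50 kb on either side, 14.4% of 21373 regions were total-only, against 36.4% of the 31635 regions with fewer than 5. The difference averaged -21.2 ± 4.55 percentage points (SD) and was negative on the 21 autosomes with enough regions in both classes. The share of regions with ubiquitylated peaks only was also lowest in the most crowded class, at 27.5%, against 38.0% with no other region near, 33.1% with 1 or 2 and 30.3% with 3 or 4. Regions of both lists made up 58.1% of the most crowded class and 27.8% with no other region near. Both measures were also crossed. Among regions with 20 to 49 others, 17.2% of 19990 were total-only in the outer 5 Mb and 29.5% of 50815 farther in, and with 50 or more others 10.4% of 13329 and 21.1% of 8044. With no other region within 50 kb the shares were 34.0% of 144 and 34.3% of 3742.

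**Figure D4:**
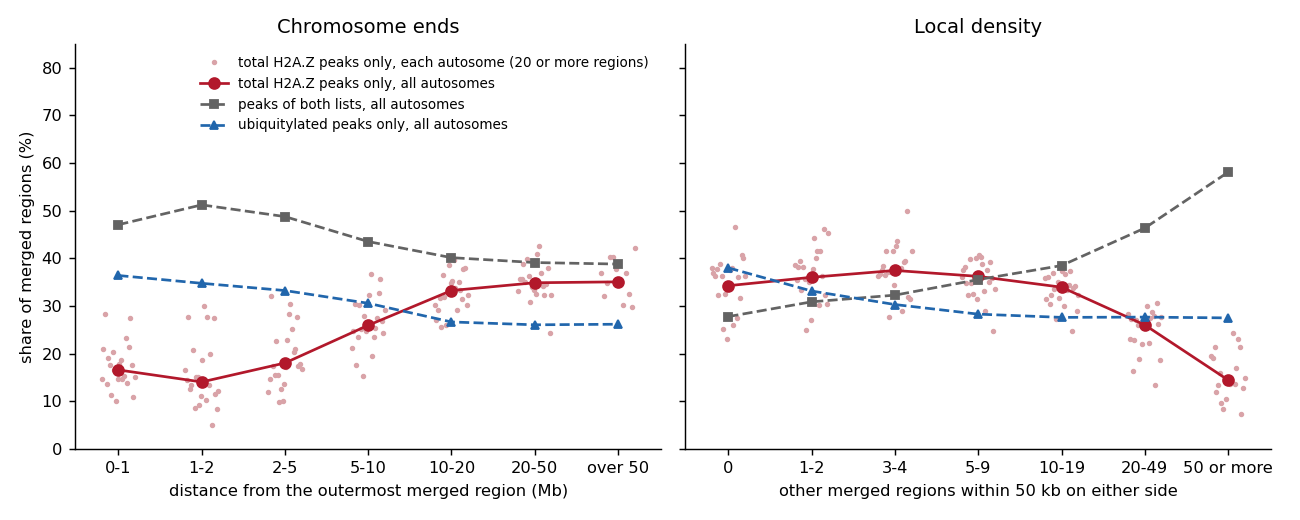
Share of merged autosomal regions (vertical axis, %) with total H2A.Z peaks only (red), peaks of both lists (grey) and ubiquitylated peaks only (blue), by distance from the outermost merged region of the chromosome (left, Mb) and by the number of other merged regions within 50 kb on either side (right); pale dots are the total-only share on single autosomes. The total-only share is 14.0% between 1 and 2 Mb from the outermost region and 35.1% beyond 50 Mb, and 14.4% where 50 or more other regions are near.

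The remaining total-only regions of the outer and of crowded stretches were also called less often. In the outer 5 Mb 1748 of 7002 were lower in the authors' deposited table, against 31.8% of 49308 farther in, a mean difference of -6.73 ± 6.06 percentage points (SD) that was negative on 19 and positive on 3 autosomes. With 50 or more other regions near, 16.5% of 3087 were lower in the authors' deposited table, against 39.4% of the 6185 with fewer than 3. This second difference averaged -26.7 ± 8.65 points (SD) and was negative on all 21 autosomes with enough regions. The median widths of these crowded regions (261 bp) and of the regions with 1 or 2 others near (255 bp) were close. Calls in regions of both lists leaned the same way in the authors' deposited table. Of these, 11.9% of the lower and 25.1% of the uncalled lay in the outer 5 Mb. For total-only regions these shares were 10.0% and 13.5%. The median number of other regions within 50 kb was 14 and 24 in regions of both lists, and 11 and 15 in total-only regions. Of all autosomal regions 12.4% were lower in the authors' deposited table. The outer 5 Mb held 41695 merged regions of every class. Lower among them were the 1748 total-only regions, 734 regions of both lists and 9 with ubiquitylated peaks only, by that deposited table. The lower share of all merged regions by crowding was not counted.

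Single stretches of 5 Mb with at least 100 merged regions, of which there were 441, had a median total-only share of 34.1% (quartiles 27.1 and 39.8%). In 296 of them total-only regions outnumbered those with ubiquitylated peaks only, and in 142 the order was opposite. The lowest share was 6.88%, from 75 to 80 Mb of chromosome 18, where 19 of 276 regions were total-only and 203 held ubiquitylated peaks only. On chromosome 10 the stretch from 130 to 135 Mb followed (128 of 1736, 7.37%), then chromosome 7 from 155 to 160 Mb (149 of 1743, 8.55%). The highest share was 60.0%, from 65 to 70 Mb of chromosome 12, with 72 of 120 regions, of which 23 were lower in the authors' deposited table. Chromosome 6 from 110 to 115 Mb (117 of 222, 52.7%), chromosome 2 from 200 to 205 Mb (93 of 177, 52.5%) and chromosome 15 from 40 to 45 Mb (107 of 208, 51.4%) came next. The chromosome 15 stretch also had a high called share, with 58 of its 107 total-only regions (54.2%) lower in the authors' deposited table. These stretches were picked as the extremes of the list.

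By chromosome the total-only share averaged 29.4 ± 3.80% (SD, n = 22). It was highest on chromosome 13, with 1390 of 3599 regions (38.6%, Wilson interval 37.0 to 40.2%), and then on chromosomes 6 (34.0%), 3 (33.7%) and 12 (33.7%), whose intervals overlap. It was lowest on chromosome 21, with 786 of 3758 regions (20.9%, 19.6 to 22.2%), and then on chromosomes 8 (23.6%) and 22 (25.5%). The share of total-only regions listed as lower in the authors' deposited table varied less, at 30.7 ± 2.57% (SD). It was highest on chromosome 19, with 1002 of 2722 regions (36.8%), which also had the widest total-only regions, and lowest on chromosome 21, with 191 of 786 (24.3%). Over merged regions of every class the authors' deposited table likewise had its highest lower share on chromosome 19 (15.8%) and its lowest on chromosome 21 (7.24%). Chromosome 13, with the highest share of total-only regions, was near the average in that deposited table, at 30.5%.

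**Figure D5:**
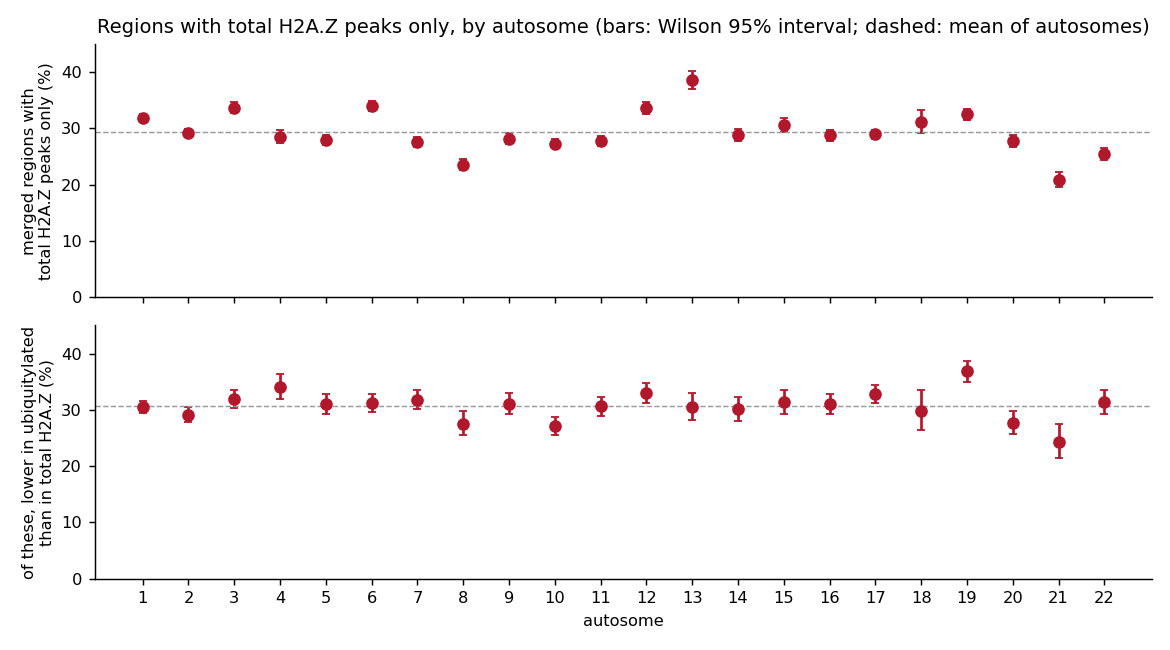
Share of merged regions with total H2A.Z peaks only (top, %) and share of these that the authors' deposited table lists as lower in ubiquitylated H2A.Z (bottom, %), by autosome; bars are Wilson 95% intervals and the dashed lines the means of the autosomes. Chromosome 13 stands highest (38.6%) and chromosome 21 lowest (20.9%) at the top, while at the bottom chromosome 19 is highest (36.8%).

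Only the authors' coordinates in hg19 can be given for single regions, since gene context and sequence were not analysed here. The 10 total-only regions of lowest FDR in the authors' deposited table were 441 to 851 bp wide, all above the upper width quartile of total-only regions (343 bp). Their log2 fold changes in that deposited table were -1.84 to -1.42. At chr6:27440278-27440986, 709 bp wide, the log2 fold change was -1.51 (FDR 1e-12) in the authors' deposited table and the nearest other region was 22142 bp away. No other of the 10 was as far from its nearest region. At chr3:171177128-171177671 (-1.74, FDR 1.4e-12 in the authors' deposited table) another total-only region lay 346 bp away and a region of both lists 898 bp away. At chr1:211849113-211849829 (-1.42, FDR 1.5e-12 in the authors' deposited table) a region of both lists lay only 161 bp away. Of these 10 regions 8 had another merged region within 400 bp, as did 17752 of all 56310 total-only regions and 6771 of the 17415 that were lower.

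The total-only regions of lowest IDR, those that repeated best between the Flag libraries, were not the same as those of lowest FDR. All 10 were listed as lower in the authors' deposited table, with log2 fold changes of -1.28 to -0.72 and widths of 217 to 706 bp. The first lay at chr22:36461343-36461677 (IDR 2.84e-06), with a log2 fold change of -1.03 and an FDR of 1.6e-06 in the authors' deposited table. The next were chr4:107955306-107955882 (IDR 3.86e-06) and chr18:56975988-56976212 (IDR 4.72e-06), at -1.01 and -0.72 (log2) in the authors' deposited table. Among the 10, chr14:55337126-55337728 had the lowest FDR, 2.4e-11, at -1.28 (log2) in the authors' deposited table. For comparison, that deposited table listed as lower 38.8% of the 5631 total-only regions of lowest IDR. It listed as lower 30.9% of all total-only regions and 12.4% of all autosomal regions. The Flag libraries enter both the IDR and the fold change.

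The widest total-only region, 2225 bp at chr7:79081396-79083620, was also isolated, with no other region within 50 kb and the nearest ubiquitylated peak 162239 bp away. Its log2 fold change was -0.63 (FDR 1.3e-05) in the authors' deposited table. The other 4 of the 5 widest measured 1653 to 2131 bp and each had a neighbour within 400 bp. Of these 5 the region at chr1:161493937-161495589 was in neither differential list, and the rest were lower, with log2 fold changes of -0.78 to -0.61 in the authors' deposited table.

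The largest fold changes belonged to narrow regions. At chr1:62189818-62189981, 164 bp wide, the log2 fold change was -3.06 (FDR 3.9e-11) in the authors' deposited table. It was -2.62 at chr19:680790-680952, -2.54 at chr6:139094944-139095142, -2.49 at chr6:49431126-49431308 and -2.46 at chr1:160312722-160313003 in the authors' deposited table. These 5 regions were 163 to 282 bp wide, and the gap to the nearest region holding a ubiquitylated peak ran from 368 to 86832 bp.

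A small number of total-only regions went against their class. In the authors' deposited table, 46 of the 56310 (0.0817%, Wilson interval 0.0613 to 0.109%) were higher, with more signal in the streptavidin than in the Flag pull-down. They held no ubiquitylated peak at the IDR threshold. Of all autosomal regions 9.23% were higher in that deposited table. Their median log2 fold change was 0.55 (0.38 to 1.06) in the authors' deposited table, and 9 had an FDR of at most 0.01 there. Their median width was 469.5 bp, where total-only regions that were lower had 311 bp, and their median IDR was 0.00852, where the lower ones had 0.00325. Of the 46, 23 lay in the outer 5 Mb of a chromosome, against 1748 of the 17415 lower total-only regions. Of the regions that were higher in the other classes, 51.1% of those of both lists and 34.3% of those with ubiquitylated peaks only lay there too, as did 41695 of all 190587 merged regions. For the 46, the nearest region with ubiquitylated peaks only was 883.5 bp away in the median, against 14916 bp for the lower total-only regions. The order was the same for regions of both lists (1935 bp for higher, 10653 bp for lower). It was also the same for regions with ubiquitylated peaks only (3320 and 13140 bp). Higher regions of both lists were likewise wider than lower ones, with medians of 821 and 616 bp.

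The lowest FDR among these 46 belonged to chr21:40114935-40115104, a 170 bp region with a log2 fold change of 1.06 (FDR 0.00015) in the authors' deposited table and the one among them with at least 2-fold change. The authors' deposited table next lists chr20:9496542-9497289 (0.64, FDR 0.00049), chr6:358416-358761 (0.81, FDR 0.0018), chr7:100641792-100642391 (0.47, FDR 0.0028) and chr19:17441013-17441323 (0.82, FDR 0.0047). The nearest region holding a ubiquitylated peak lay 134 to 2139 bp from each of these 5.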

How the data were processed

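Bowtie, SAMtools, MACS2 and edgeR and the build hg19 are listed per the submitters' processing notes; versions and settings are not stated. Per H2A.Z form the authors deposited 1 peak list, with an IDR per peak of at most 0.05, treated like a q-value although the file does not state whether it is local or global. Differential regions were deposited as 2 lists, 1 per direction, with an FDR and a fold change read as log2. No file holds depth or values per library; the H3 libraries enter no comparison here. Starts were read as counted from 0, which the files do not state, and raised by 1 base. Overlapping or touching peaks of both lists were joined into 198179 regions, and all 42574 differential regions matched 1 of them exactly. Merging, classes and gaps were tested on simulated intervals. No test was made. Relations by autosome used those with at least 10 regions in both classes. Named regions are the 10 of lowest FDR and of lowest IDR, the 5 widest, the 5 of lowest FDR that were higher, and the 5 of largest fold change in each direction. The regions and lists were chosen with earlier results of these data known. Gene starts, gene lists, GC content and motifs were not analysed here, because the reference tables are of another build (GRCh38.p14). Intervals came from scipy 1.17.1 and figures from matplotlib 3.10.9, with tables handled in pandas 2.3.3 and numpy 2.4.6 under Python 3.11.15.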

Additional observations from a re-analysis of the deposited data

How the results depend on the processing

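No paired analysis was possible because no value of a single library is in the lists, so no replicate could be left out either. Of 64 alternatives 20 were not run for want of an hg19 genome or annotation and 2 for want of values per library. Of the 42 that were run, 28 stayed within 1.5 times the count, the counting interval of the share or 1 SD over autosomes of the median. The number of total-only regions was 37158 without those within 1 kb of a region holding a ubiquitylated peak. Their share of merged regions was 29.3% with both lists at IDR 0.01. It was 27.3% and 19.5% without those within 150 bp and 1 kb of a region holding a ubiquitylated peak. It was 31.6% with regions of both lists under 50% covered, 29.2% with chromosome X added and 31.0% without the outer 2 Mb. The share lower in the authors' deposited table was 29.7% at IDR 0.01, 31.8% without those within 1 kb, 30.5% with chromosome X, 18.7% at FDR 0.01 and 8.25% with at least 2-fold change. The median width was 262 bp with regions under 50% covered, and the median -log10 IDR was 2.65 at IDR 0.01. A stricter threshold calls fewer regions by construction; other causes were not tested. Depth is unknown, and an uncalled region is not shown to be equal in both pull-downs.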

Other observations

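Chromosome X was outside the rule. Of its 7493 merged regions 1461 held total H2A.Z peaks only (19.5%, Wilson interval 18.6 to 20.4%). The lowest autosome, chromosome 21, had 20.9% (19.6 to 22.2%), so the intervals overlap. Ubiquitylated peaks only were held by 38.6% of the X regions, within the autosomal range of 24.6 to 40.0%. Of the 1461 regions 216 (14.8%) were lower and 2 were higher in the authors' deposited table. On the autosomes 30.9% of total-only regions and 12.4% of all merged regions were lower there. The lower share over all merged regions of X was not counted. The median width of the 1461 regions was 240.0 bp. These values were not tested, and the copy number of X in this line was not analysed here.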
